A study of Mus musculus with 24 samples.

Results

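Mouse lung adenocarcinoma cells that carry an eIF2α form without its phosphorylation site (A/A) were compared with cells that carry wild-type eIF2α (S/S), both in culture after a control siRNA. The comparison rests on 8 of the 24 libraries of the series, the 4 A/A siControl and the 4 S/S siControl libraries of the siRNA table, and on its autosomal genes. Of 37564 autosomal genes in that table, 17517 had enough counts to be tested. Per the labels, the cells are cultured primary lung adenocarcinoma cells from GFP+/CD45- tumour cells sorted by flow cytometry, and both groups had the same siRNA control. The genotype field reads WT for all 8 samples, so A/A and S/S are known from the titles. The labels give neither the number of animals or cell lines behind each genotype nor whether the 4 libraries of a group are separate cultures. Each p-value therefore measures only the spread between libraries, estimated over the 16 libraries of the siRNA table. The allele and the line that carries it cannot be told apart.

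eIF2 delivers the initiator tRNA to ribosomes, and stress kinases phosphorylate a serine of its α subunit. This lowers general translation and raises translation of ATF4, a transcription factor that switches on genes of amino acid supply, tRNA charging and stress, a programme called the integrated stress response. Alanine at that serine cannot be phosphorylated. Lung adenocarcinoma often begins in alveolar type 2 cells, which make surfactant under the factor NKX2-1, and tumours of this kind can gain gut and liver genes.

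Total counts ran from 46016993 to 51892956 in A/A and from 42863650 to 53032347 in S/S libraries. Levels are given as counts per 1000000 counts of a library after scaling (CPM), fold changes as log2 of A/A over S/S with standard error (SE), and adjusted p-values come from edgeR's quasi-likelihood test over all genes of the table. A gene is said to have risen or fallen where the adjusted p is under 0.05. In a principal component analysis of the 1000 autosomal genes that varied most, component 1 took up 96.02% of the variance and split the genotypes. A/A siControl 1 scored 42.95 on it, nearer to the S/S side than the other A/A libraries (64.99 to 71.98), while the S/S libraries scored from -64.25 to -62.14. In that library, RNAs of 14 genes that S/S cells expressed and A/A siChchd10 libraries nearly lacked stood at a median of 6.72% of their S/S level. The median was 1.26% in A/A siControl 2, and 0.471% and 0.512% in A/A siControl 3 and 4. Falls of over 8-fold are for this reason given also without A/A siControl 1, by a value, range, bound or count. What put these RNAs there was not tested.

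**Figure D1:**
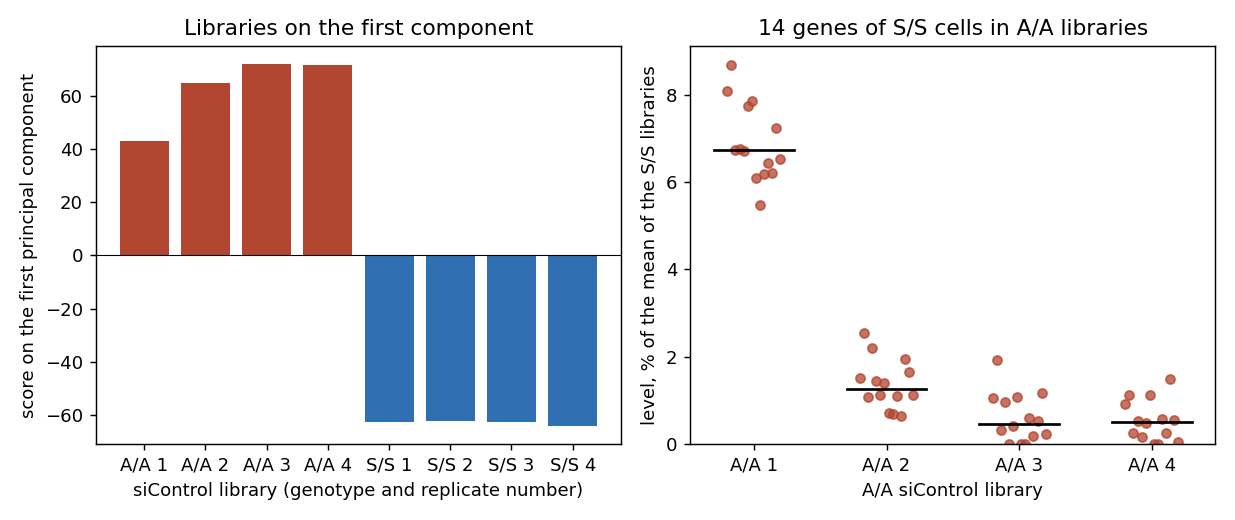
Left, the score of each of the 8 libraries on the first principal component, with A/A libraries in red and S/S libraries in blue. Right, the level of 14 genes of S/S cells in each A/A library as a percentage of their S/S mean (points, genes; line, median); A/A siControl 1 stands at a median of 6.72%, above the 0.471% to 1.26% of the other 3.

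The epithelial genes Krt8, Krt18 and Cdh1 (mean 982 CPM in A/A and 603 CPM in S/S cells) were high in both groups. Epcam, another epithelial gene, was low in both (mean 1.44 CPM in A/A and 8.93 CPM in S/S cells). Krt8 and Krt18, the keratin pair of simple epithelium, measured 1178 ± 71.8 and 1074 ± 7.38 CPM in A/A cells, against 2145 ± 174 and 1751 ± 78.1 CPM in S/S cells. Markers of leukocytes, endothelial cells and fibroblasts were scarce. The summed level of 10 leukocyte markers was 1.84 to 2.19 CPM in A/A and 3.38 to 4.02 CPM in S/S libraries, with Tyrobp at 0 counts in both groups. The 8 endothelial markers summed to 1.58 to 2.19 and 2 to 2.28 CPM, with Emcn and Tie1 at 0 in both, and the 8 fibroblast markers to 4.53 to 5.25 and 4.57 to 5.35 CPM, with Tcf21 at 0 in both. Among the non-polyadenylated RNAs, which can mark differences in RNA selection, 1 of 5 tested rose, Rpph1 (2.42 ± 0.891 CPM in A/A and 0.809 ± 0.187 CPM in S/S cells). In bulk RNA, fewer cells of a type and less RNA per cell cannot be told apart.

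The genotypes differed across most of the expressed genome. Of 17517 genes, 12283 passed the threshold (70.1%), 6241 higher (35.6%) and 6042 lower (34.5%) in A/A cells. At least 2-fold changes numbered 3766 (21.5%), with 1881 rises (10.7%) and 1885 falls (10.8%), and at least 4-fold changes were 705 rises (4.02%) and 1056 falls (6.03%). For 11301 genes (64.5%) the ranges of A/A and S/S libraries did not overlap. The median log2 fold change over all genes was 0.01, with quartiles of -0.37 and 0.45. Without A/A siControl 1, 11826 of the calls held in the same direction (96.3%). The median of the at least 4-fold falls was -3.41 with that library and -3.67 without it, while that of the rises was 3.08 and 3.09. The shares of all genes that rose and fell, 35.6% and 34.5%, are the background for each list below. After Chchd10 knockdown, in libraries that share no sample with these, 12330 genes differed between the genotypes (70.4%). In both comparisons 9431 genes differed in the same direction, which is 76.8% of the siControl and 76.5% of the siChchd10 calls. The comparisons were fitted in the same model, and the labels do not show that their cells come from separate lines. The overlap is therefore not an independent check. The size of the A/A over S/S difference itself differed between the siRNAs for 6258 genes (35.7%) by the interaction term.

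**Figure D2:**
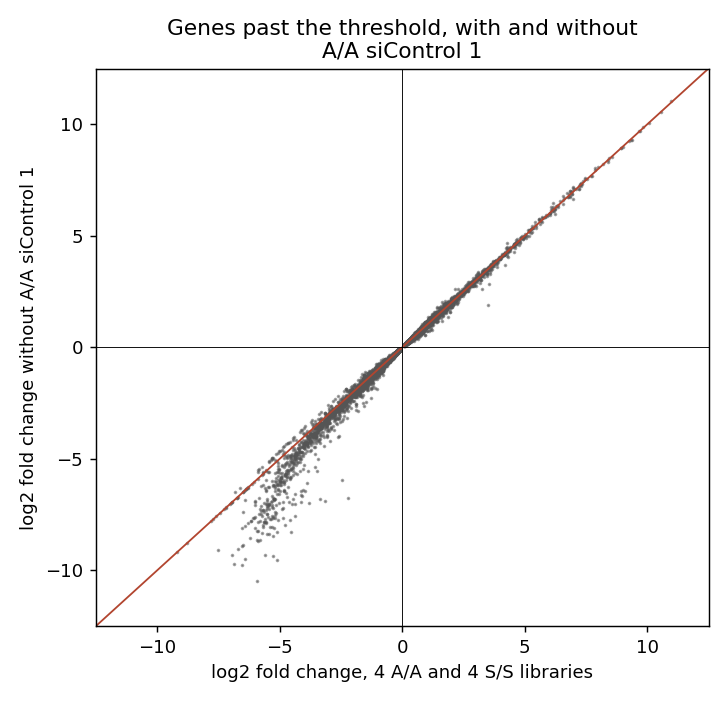
Log2 fold change of A/A over S/S for each gene past the threshold, from all 8 libraries (horizontal axis) and without A/A siControl 1 (vertical axis), with the line of equality in red. Rises lie along the line, while strong falls lie below it, so that their size rests on that library.

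Eif2s1, Atf4 and Chchd10 were examined first because the alleles, the stress response and the other siRNA of the study concern them. Eif2s1 (chromosome 12, 78862072 to 78887010, GRCm38.p6) encodes eIF2α and measured 200.3, 187, 197 and 198 CPM in A/A siControl 1 to 4, against 227, 209, 208 and 219 CPM in S/S siControl 1 to 4. The groups did not overlap, though the fall was small (-0.14, SE 0.0453, adjusted p = 0.00689). A count per gene does not show which allele a cell carries, so these values do not check the genotype. Atf4 (chromosome 15, 80255184 to 80257545) measured 185, 159.5, 162 and 151 CPM in A/A cells, against 522, 555, 473 and 527 CPM in S/S cells. Every A/A library lay below every S/S library (log2 fold change -1.66, SE 0.0566, adjusted p = 1.73e-19). Chchd10 (chromosome 10, 75933130 to 75937750), which encodes a protein of the mitochondrial intermembrane space, measured 10.2, 9.53, 7.97 and 7.99 CPM in A/A cells and 40.6, 45.5, 38.1 and 46.001 CPM in S/S cells (-2.25, SE 0.0924, adjusted p = 1.77e-16). Of 15 genes listed under eIF2, its exchange factor eIF2B, its kinases and its phosphatase subunits, 6 rose and 5 fell, none by 2-fold (median 0.08). Eif2ak2, the kinase gene that answers double-stranded RNA, fell (-0.67, 28.4 ± 1.47 CPM in A/A and 45.2 ± 1.54 CPM in S/S cells), as did Eif2b3 (-0.41) and Eif2s2 (-0.31). Eif2a (0.33), Eif2b5 (0.26) and Ppp1r15a (0.17), a stress-induced phosphatase subunit, rose. Eif2a is in this list but encodes eIF2A, a separate initiation factor, and not eIF2α or another eIF2 subunit.

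Genes that ATF4 is known to induce fell more often than they rose. Of 24 amino acid genes tested, 16 fell and 3 rose (median -0.31), and of 20 stress genes, 13 fell and 4 rose (median -0.74). Asns, the asparagine synthetase gene, measured 223, 209, 209.8 and 214 CPM in A/A cells, against 379.9, 399.8, 359 and 378 CPM in S/S cells, with no overlap (-0.83, SE 0.0446, adjusted p = 8.15e-16). The largest falls of the first list were in Bcat1 (-2.20), which starts breakdown of branched-chain amino acids, Cth (-1.59), which makes cysteine, and Aldh1l2 (-1.54), a mitochondrial enzyme of folate metabolism. The glutamine transporter gene Slc1a5 (0.36), Gpt2 (0.20) and the glycine transporter gene Slc6a9 (0.13) rose by less, and Slc6a9 lost its call without A/A siControl 3 (adjusted p = 0.0664), without S/S siControl 1 (0.103) or with DESeq2 (0.0550). Chac1, whose enzyme breaks down glutathione, measured 16.6, 13.7, 13.5 and 12.2 CPM in A/A cells and 45.7, 65.2, 42.5 and 47.7 CPM in S/S cells (-1.84, SE 0.1304). The transcription factor gene Atf3 fell by a like amount (-2.11, 3.22 ± 0.511 CPM in A/A and 13.9 ± 2.09 CPM in S/S cells), and Fgf21, for a secreted hormone, by more (-3.73, -3.95 without A/A siControl 1, 0.1597 ± 0.05301 against 2.14 ± 0.713 CPM). Ddit3, the gene for the death-linked factor CHOP, fell too (-0.74, SE 0.0907, adjusted p = 1.60e-07), and it overlaps other annotated genes. Gdf15, for another secreted stress hormone, went the other way, with 80.9, 94.5, 99.1 and 94.9 CPM in A/A cells against 42.1, 63.8, 42.7 and 43.6 CPM in S/S cells (0.94, SE 0.113, adjusted p = 3.60e-06). Herpud1 (0.55), which serves degradation of proteins from the endoplasmic reticulum, Adm2 (0.28, adjusted p = 0.0581 without S/S siControl 3) and Ppp1r15a were the other rises.

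Promoter sequence of members that the naming rule gave is shown because ATF4, paired with a C/EBP factor, binds the letters TGATGNAA. Windows of 250 bases before to 50 after each gene start, from RefSeq on GRCm38.p6, were searched on both strands, where the reverse reads TTNCATCA. Of 27025 gene symbols with a window, 1219 held the motif (4.51%), against 5 of 20 matched amino acid genes (25%) and 8 of 19 matched stress genes (42.1%). Of those 13 genes, 9 fell, 1 rose and 3 did not pass, while 16 of 24 and 13 of 20 genes fell in the 2 whole lists. The lists were made of genes that ATF4 is known to induce, so these counts do not test the motif. In the lines that follow, capitals mark the motif, and each stretch runs 5′ to 3′ on the strand of its gene.
Asns, chr6:7693185-7693272, minus strand: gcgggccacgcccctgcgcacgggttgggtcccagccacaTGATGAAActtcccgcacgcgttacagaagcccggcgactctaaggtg
Chac1, chr2:119351009-119351096, plus strand: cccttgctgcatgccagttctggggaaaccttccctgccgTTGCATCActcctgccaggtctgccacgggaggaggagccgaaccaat
Atf3, chr1:191183396-191183483, minus strand: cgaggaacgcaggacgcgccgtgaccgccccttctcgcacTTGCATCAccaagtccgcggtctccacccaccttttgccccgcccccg
Fgf21, chr7:45615582-45615669, minus strand: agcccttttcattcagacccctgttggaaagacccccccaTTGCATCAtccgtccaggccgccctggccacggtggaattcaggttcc
Herpud1, chr8:94386277-94386364, plus strand: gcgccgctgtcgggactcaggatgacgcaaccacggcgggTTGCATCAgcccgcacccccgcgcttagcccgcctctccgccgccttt
Chchd10, chr10:75933005-75933092, plus strand: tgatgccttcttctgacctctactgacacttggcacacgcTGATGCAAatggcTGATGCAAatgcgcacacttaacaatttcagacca
The Asns, Chac1, Atf3 and Fgf21 stretches belong to genes that fell, and the Herpud1 stretch to one that rose. The letters begin 23 bases before the start of Asns, 193 before that of Chac1, 110 before that of Atf3, 139 before that of Fgf21 and 112 before that of Herpud1. Chchd10 is not a member of either list and was added after its window was seen to hold the motif, at 2 places, the first 85 bases before its start. Asns and Chchd10 have the motif on the strand of the gene, and the other 4 on the opposite strand. A match describes the letters and does not show binding.

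**Figure D3:**
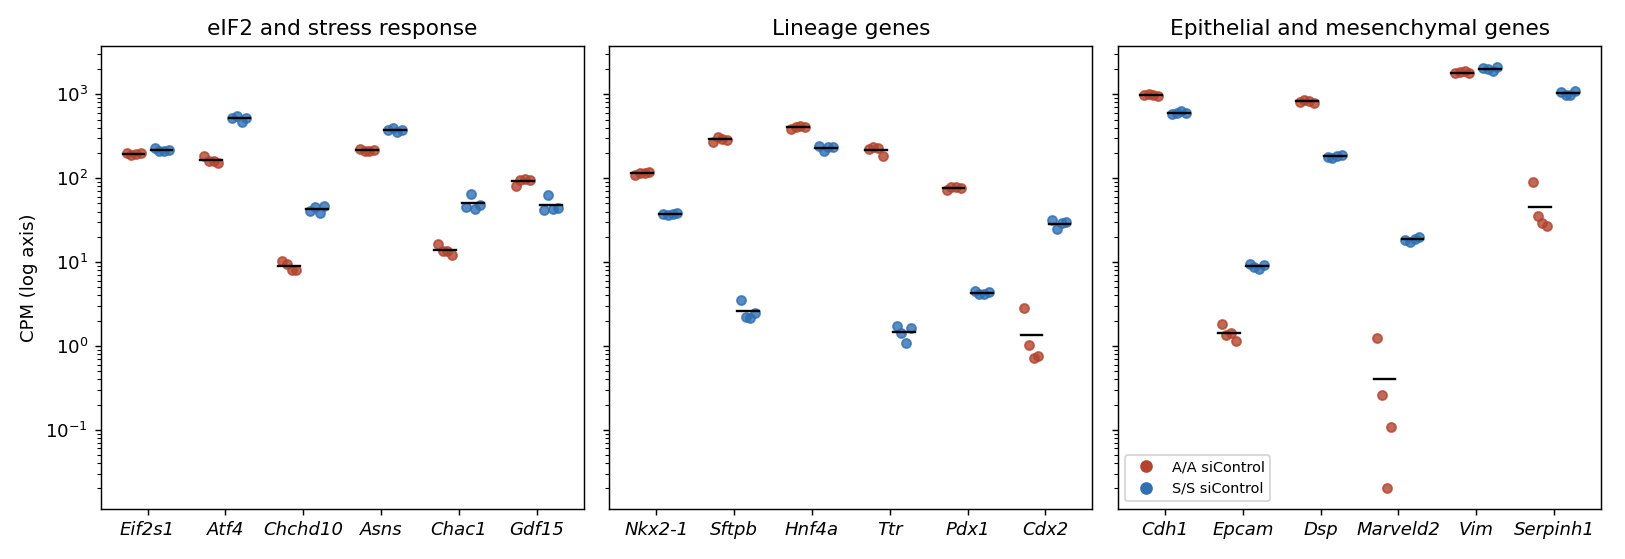
Level of 18 named genes in each library, in CPM on a log axis, with A/A siControl (red) to the left of S/S siControl (blue) for each gene and a black line at the group mean. The groups overlap for none of the 18 genes. A/A siControl 1 is the highest A/A point for Eif2s1, Atf4, Chchd10, Asns, Chac1, Cdx2, Epcam, Marveld2 and Serpinh1.

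Other genes of protein synthesis were lower as groups while those of the endoplasmic reticulum were not. Of 20 cytosolic tRNA synthetase genes, 14 fell and 3 rose (median -0.28), with the largest falls in Gars (-0.80, 274 ± 13.2 CPM in A/A and 476 ± 19.2 CPM in S/S cells), Eprs (-0.52) and Yars (-0.52). Hars (0.26), Lars (0.23) and Nars (0.20) rose. Of 80 cytosolic ribosomal protein genes, 65 fell and 5 rose, none by 2-fold (median -0.31). Rpl14 (-0.78) and Rpl9 (-0.66) fell most, and Rpl29 (0.34) and Rpl3 (0.28) rose. Many of these have pseudogene copies, so their counts are uncertain. Of 25 genes of endoplasmic reticulum chaperones and the unfolded protein response, 13 rose and 3 fell (median 0.14). The co-chaperone genes Dnajb9 (0.57, 30.2 ± 0.905 CPM in A/A and 20.4 ± 1.16 CPM in S/S cells) and Dnajc3 (0.51) and the sensor gene Ern1 (0.43) rose most. The falls were Manf (-0.20, adjusted p = 0.0563 without S/S siControl 4), Sec61b (-0.19) and Atf6 (-0.16).

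Nuclear genes of mitochondria changed by less than 2-fold with few exceptions. Of 73 respiratory chain and ATP synthase genes, 37 fell and 15 rose (median -0.13), led by Cox5b (-0.59), Ndufb6 (-0.55) and Ndufb8 (-0.55) among falls. Atp5a1, the α subunit of ATP synthase, rose (0.66, 1038 ± 16.5 CPM in A/A and 656 ± 28.8 CPM in S/S cells), as did Ndufc1 (0.36) and Atp5pb (0.36). Of 78 mitochondrial ribosomal protein genes, 51 fell and 10 rose (median -0.24), with Mrpl15 (-0.97) and Mrpl33 (-0.84) at one end and Mrps6 (0.62) at the other. Of 15 mitochondrial chaperone and protease genes, 10 fell and 3 rose (median -0.48). Lonp1, the matrix protease that ATF4 is known to induce, measured 158, 142, 148 and 132 CPM in A/A cells, against 310.0, 313, 296 and 325 CPM in S/S cells (-1.10, SE 0.0477, adjusted p = 5.12e-18). Grpel2 (0.55) and Spg7 (0.46) rose, and Hspe1 (-0.60) and Pmpcb (-0.57) fell. In the list of 18 cristae and twin-CHCH genes, Chchd10 alone fell by over 2-fold, 9 fell in all and 3 rose (median -0.10). The prohibitin gene Phb2 (-0.67) and Samm50 (-0.63) fell and Afg3l2 (0.41) rose. Of 16 tricarboxylic acid cycle genes, 6 rose and 7 fell (median -0.04), between Sdhb (-0.34) and Pdhb (0.31).

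Genes of lung and endoderm identity differed by far more, and in both directions within a lineage. Nkx2-1, the factor of lung and surfactant genes, measured 109.7, 117, 114 and 118 CPM in A/A cells, against 36.98, 36.8, 37.7 and 38.1 CPM in S/S cells, without overlap (1.61, SE 0.0485, adjusted p = 1.07e-21). Sftpb, for surfactant protein B, measured 269.8, 307, 296 and 288 CPM in A/A cells and 3.52, 2.22, 2.15 and 2.48 CPM in S/S cells (6.83, SE 0.153, adjusted p = 6.81e-15). It was among the most abundant genes that rose at least 4-fold. Sftpc, the surfactant gene most particular to alveolar type 2 cells, had 18 counts in the 4 A/A libraries and 4 in the 4 S/S libraries, and the libraries overlapped (2.02, adjusted p = 0.0121). Of 19 alveolar type 2 genes listed, Chil1, Lamp3 and Napsa had too few counts to be tested. Of the 16 tested, 9 rose and 6 fell (median 0.66). Hc, for complement component C5, rose (4.86, 8.36 ± 0.506 CPM in A/A and 0.288 ± 0.03002 CPM in S/S cells), as did Sftpa1 at a low level (2.26). The alarmin gene Il33 fell (-2.51, 14.6 ± 2.15 CPM in A/A and 83.2 ± 4.97 CPM in S/S cells), with Slc34a2 and Cxcl15 under 1 CPM in both groups. Of 15 alveolar type 1 genes, 7 rose and 4 fell (median 0.49), with Ager (2.12) and Hopx (2.25) higher and Rtkn2 (-1.76) and Cav2 (-1.37) lower. Of 18 genes of the transitional alveolar state, 7 rose and 9 fell (median -0.12). In that list the tight junction gene Cldn4 (-4.58, -5.49 without A/A siControl 1) and Itgb6 (-5.22, -6.17) fell, and the EGF-like ligand gene Hbegf rose (1.01, 217 ± 19.01 CPM in A/A and 108 ± 6.16 CPM in S/S cells).

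Gut and liver genes were likewise split. Hnf4a, a factor of both lineages, measured 391, 408, 414 and 402 CPM in A/A cells, against 242, 212, 235 and 237 CPM in S/S cells (0.80, SE 0.0458, adjusted p = 2.93e-15), and it overlaps an antisense gene. Pdx1, a factor of pancreas and duodenum, measured 71.6, 78.5, 79.5 and 76.6 CPM in A/A cells and 4.56, 4.18, 4.12 and 4.395 CPM in S/S cells (4.15, SE 0.0575, adjusted p = 3.02e-29). Cdx2, a factor of intestinal epithelium, went the other way, with 2.86, 1.03, 0.715 and 0.7498 CPM in A/A cells against 31.4, 24.4, 29.2 and 30.1 CPM in S/S cells (-4.40, and -5.10 without A/A siControl 1). Of 20 gut endoderm genes, 11 rose and 8 fell (median 0.43), and Fabp1, which binds fatty acids in gut and liver, rose with Pdx1 (4.04, 110.2 ± 7.89 CPM in A/A and 6.77 ± 1.303 CPM in S/S cells). Krt20 (-1.32) and Ctse (-2.14) fell. Of 18 liver plasma protein genes, 6 rose and 9 fell (median -0.85). Ttr, for transthyretin, measured 222, 237, 229.9 and 185 CPM in A/A cells and 1.75, 1.41, 1.08 and 1.62 CPM in S/S cells (7.23, SE 0.167, adjusted p = 1.55e-14). Alb, for albumin (1.83, 221 ± 10.4 CPM in A/A and 62.2 ± 7.66 CPM in S/S cells), and Apoa1 (1.84) rose with it. Apob, the protein of very low density lipoprotein, measured 50.3, 24.2, 21.1 and 21.4 CPM in A/A cells, against 467, 484, 550.1 and 452 CPM in S/S cells (-4.06, and -4.45 without A/A siControl 1). The fibrinogen genes Fga (-3.44, -3.60) and Fgg (-5.65, -7.36) fell as well, with the value without that library given second.

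Of 17 lung and foregut transcription factor genes, 10 rose and 4 fell (median 0.30). Foxp2 rose and was near 0 in S/S cells (4.66, 1.35 ± 0.161 CPM in A/A and 0.0513 ± 0.0117 CPM in S/S cells), Gata6 rose (0.91), and Id2 (-0.88), Sox9 (-0.70) and Runx2 (-0.53) fell. Of 7 airway, basal and neuroendocrine genes tested, 4 rose and 2 fell. The airway mucin gene Muc5b measured 28.5, 33.4, 33.1 and 32.2 CPM in A/A cells, against 2.79, 3.07, 4.09 and 2.71 CPM in S/S cells (3.32). Foxj1, the factor of ciliated cells, measured 1.34, 0.119, 0.0613 and 0 CPM in A/A cells, against 15.6, 10.98, 13.2 and 14.5 CPM in S/S cells (-5.07, and -7.72 without A/A siControl 1). Of 8 mucin genes 3 rose and 1 fell, Muc5b the most.

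**Figure D4:**
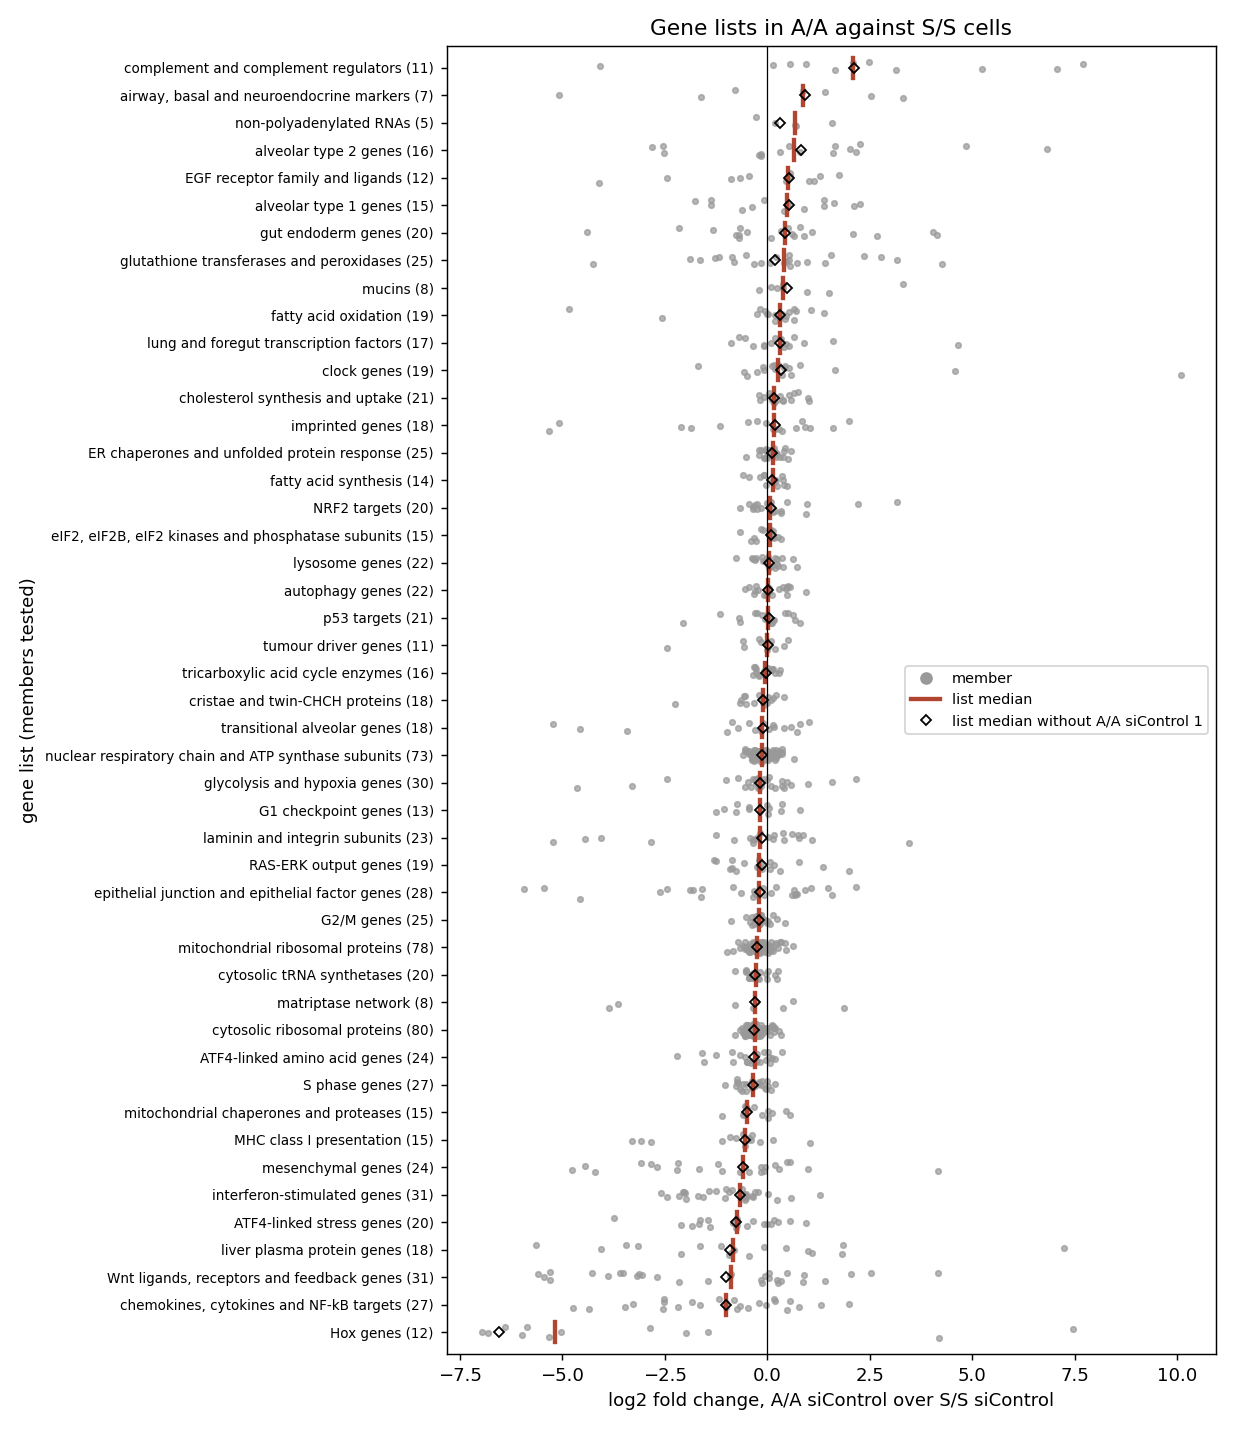
Log2 fold change of A/A over S/S for the tested members of each gene list (grey points), with the list median (red bar) and the median without A/A siControl 1 (open diamond). Complement genes stand highest (median 2.09) and Hox genes lowest (-5.17, and -6.54 without that library). In both lists a member could pass the filter on counts through the group where it was high.

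Epithelial genes changed in both directions. Cdh1, for E-cadherin, measured 977, 1013, 988 and 951 CPM in A/A cells, against 583, 601, 626 and 601 CPM in S/S cells (0.70, SE 0.0454, adjusted p = 4.65e-14). Vim, the intermediate filament gene of mesenchymal cells, was high in both, at 1797, 1832, 1872 and 1772 CPM in A/A and 2042, 2001, 1899 and 2119 CPM in S/S cells (-0.15, adjusted p = 0.00557). Of 28 epithelial junction and factor genes, 11 rose, 4 of them at least 2-fold, and 14 fell, 9 of them at least 2-fold (median -0.20). Dsp, for the desmosome protein desmoplakin, rose (2.18, 822 ± 31.2 CPM in A/A and 182 ± 6.57 CPM in S/S cells), as did Tjp3 (1.59). Epcam, an epithelial adhesion gene, measured 1.82, 1.36, 1.43 and 1.14 CPM in A/A cells and 9.45, 8.76, 8.15 and 9.35 CPM in S/S cells (-2.62). Marveld2, for the tricellular junction protein tricellulin, measured 1.23, 0.257, 0.0204 and 0.107 CPM in A/A cells, against 18.3, 17.4, 18.9 and 19.8 CPM in S/S cells (-5.46, and -7.13 without A/A siControl 1). Esrp1, an epithelial splicing factor, measured 0.208, 0, 0 and 0 CPM in A/A cells, so that its A/A counts came from A/A siControl 1, against 3.28, 3.61, 3.497 and 3.67 CPM in S/S cells (-5.93 with that library). Without that library it was at least 172-fold lower, taking 3 counts over the other 3 libraries as the limit. In the matriptase network of membrane proteases, 5 of 8 fell and 2 rose. The protease gene St14 (-3.64, -3.97 without A/A siControl 1) and its inhibitor gene Spint1 (-3.85, -4.42) fell, and a second inhibitor gene, Spint2, rose (0.62, 277 ± 10.2 CPM in A/A and 180.3 ± 8.17 CPM in S/S cells).

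Of 24 mesenchymal genes tested, 15 fell, 11 of them at least 2-fold, and 5 rose (median -0.60). The collagen gene Col5a1 (-4.77, 1.03 ± 0.995 CPM in A/A and 28.8 ± 1.995 CPM in S/S cells), Tnc (-4.44) and Tgfbi (-4.20) fell most, at -5.73, -4.88 and -4.94 without A/A siControl 1. Serpinh1, the collagen chaperone, was the most abundant gene to fall at least 4-fold, at 90.9, 35.1, 29.2 and 27.2 CPM in A/A cells against 1059.7, 977, 979 and 1098 CPM in S/S cells (-4.49, and -5.07 without A/A siControl 1). Loxl2 rose (0.99). Of 23 laminin and integrin genes, 10 rose and 11 fell. Itga1, a collagen receptor subunit, measured 143, 168, 162 and 165 CPM in A/A cells, against 15.3, 12.8, 15.8 and 14.1 CPM in S/S cells (3.46), and Lamb2 rose (1.10). Itgb6 and Itgb7 (-4.06, -4.35 without A/A siControl 1) fell.

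Wnt ligand genes changed in opposite directions. Wnt5a, a ligand of non-canonical signalling, measured 22.3, 24.8, 23.6 and 21.4 CPM in A/A cells, against 1.32, 1.09, 1.501 and 1.22 CPM in S/S cells (4.17, SE 0.113, adjusted p = 6.53e-22). Wnt7b measured 4.104, 0.652, 0.327 and 0.14996 CPM in A/A cells, against 56.6, 62.4, 53.97 and 64.3 CPM in S/S cells (-5.44, and -7.26 without A/A siControl 1). Wnt10a measured 2.87, 0.494, 0.102 and 0.0214 CPM in A/A cells, against 45.7, 41.4, 41.3 and 47.99 CPM in S/S cells (-5.59, and -7.68 without it). Both ligands were at their highest A/A level in that library. The receptor genes Fzd8 (2.54, 17.4 ± 1.51 CPM in A/A and 2.98 ± 0.398 CPM in S/S cells) and Fzd1 (2.04) rose. In all, 9 of 31 Wnt genes rose and 18 fell, 14 of them at least 2-fold (median -0.88).

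Growth signalling genes changed in both directions. Egfr fell (-2.45, 9.87 ± 1.096 CPM in A/A and 53.9 ± 2.78 CPM in S/S cells), while its relative Erbb3 rose (1.13, 71.4 ± 4.91 against 32.5 ± 1.97 CPM), and of 12 genes of the family and its ligands 7 rose and 5 fell. Of 11 tumour driver genes 2 rose and 5 fell. Of 19 genes that RAS-ERK signalling is known to induce, 12 fell and 5 rose (median -0.19). Without A/A siControl 1, 9 of them fell and 6 rose (median -0.13). The ERK inhibitors Spry1 (1.99, 87.1 ± 8.43 CPM in A/A and 21.9 ± 1.603 CPM in S/S cells), Spry4 (1.36) and Dusp6 (0.77) rose, and Ccnd1, for cyclin D1, fell (-1.25, 449 ± 7.902 against 1065 ± 58.000 CPM). Trp53, the p53 gene, measured 12.9, 11.8, 13.4 and 14.2 CPM in A/A and 10.99, 12.1, 13.2 and 9.86 CPM in S/S cells and did not pass (0.18, adjusted p = 0.0876), though it passed without A/A siControl 2 (adjusted p = 0.0423), without S/S siControl 3 (0.0231) or with no filter on low counts (0.0347). Of 21 p53 target genes, 8 rose and 7 fell, among them Cdkn1a (0.81), for the cell cycle inhibitor p21, and Plk2 (-2.04). Cdkn2a, for the inhibitors p16 and p19, fell slightly (-0.18, adjusted p = 0.00121), and its neighbour Cdkn2b by more (-1.05).

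Cell cycle genes were lower by small amounts. Of 27 S phase genes, 21 fell and 1 rose, Fen1 (median -0.35), with Mcm6 (-1.03, 187 ± 10.7 CPM in A/A and 382 ± 21.99 CPM in S/S cells) and Gins2 (-0.77) lowest. Of 25 G2/M genes, 15 fell and 3 rose (median -0.20), between Cenpf (-0.89) and Kif23 (0.43). Of 13 G1 checkpoint genes, 7 fell and 3 rose (median -0.18).

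The listed interferon-stimulated and inflammatory genes fell in large part. Of 31 interferon-stimulated genes, 27 fell, 13 of them at least 2-fold, and 2 rose (median -0.67). Oas3, an antiviral synthetase gene, fell (-2.15, 2.61 ± 0.2898 CPM in A/A and 11.5 ± 3.44 CPM in S/S cells), with Cmpk2 (-2.45) and Gbp3 (-2.59), while Ifit2 (0.57) and Ifih1 (0.24) rose. The abundant gene Ly6e, which this list does not hold, rose (3.07, 1035 ± 30.4 CPM in A/A and 123 ± 5.89 CPM in S/S cells). Of 15 genes of MHC class I presentation, 12 fell and 2 rose (median -0.54). The immunoproteasome gene Psmb8 (-3.31, -3.95 without A/A siControl 1, 0.129 ± 0.105 CPM in A/A and 1.31 ± 0.132 CPM in S/S cells) fell, while the non-classical gene H2-T23 rose (1.03). Genes of this family are near-identical copies, and their counts are uncertain. Of 27 chemokine, cytokine and NF-kB target genes, 19 fell, 13 at least 2-fold, and 6 rose (median -0.997). Ccl2, which draws monocytes, measured 3.63, 0.988, 0.347 and 0.4499 CPM in A/A cells, against 47.3, 39.6, 28.7 and 34.3 CPM in S/S cells (-4.74, and -5.95 without A/A siControl 1). Csf3, for granulocyte colony-stimulating factor (1.99), and Icam1 (1.32, 126 ± 3.74 CPM in A/A and 50.3 ± 2.39 CPM in S/S cells) rose.

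Complement genes were the list with the highest median, as 10 of 11 rose, 7 of them at least 2-fold, and 1 fell (median 2.09). Members near 0 in S/S cells, such as Cd59a, could pass the filter on counts through A/A libraries alone, which bears on this median. Cd55, which shields cells from complement, measured 72.01, 68.99, 74.8 and 67.8 CPM in A/A cells, against 0.662, 0.278, 0.152 and 0.32005 CPM in S/S cells (7.70, SE 0.123, adjusted p = 1.50e-25). Cd59a, another such shield, rose as well (7.08, 12.7 ± 0.734 CPM in A/A and 0.0941 ± 0.0505 CPM in S/S cells), and so did C2 (5.25), a component of the classical pathway. C3, the central component, was the fall, at 13.9, 5.22, 4.72 and 4.28 CPM in A/A cells against 147, 94.8, 115 and 128 CPM in S/S cells (-4.09, and -4.67 without A/A siControl 1).

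Metabolic lists moved by small amounts around a few strong genes. Of 21 cholesterol genes, 16 rose and 2 fell (median 0.18), with Tm7sf2 (1.02, 16.8 ± 0.657 CPM in A/A and 8.24 ± 0.468 CPM in S/S cells) and Dhcr7 (0.76) among the higher. Fatty acid synthesis gave 7 rises and 3 falls of 14, with Me1 (0.48) and Fads2 (-0.60) at its ends. Of 19 fatty acid oxidation genes, 12 rose and 4 fell (median 0.31), with the peroxisomal gene Ehhadh (1.40, 5.77 ± 0.594 CPM in A/A and 2.18 ± 0.317 CPM in S/S cells) higher. Decr1, for a mitochondrial reductase, fell (-2.57, 7.33 ± 1.15 against 43.6 ± 3.11 CPM), as did Ppara (-4.84, -4.97 without A/A siControl 1), the factor that drives this programme in liver. Of 30 glycolysis and hypoxia genes, 8 rose and 17 fell (median -0.17), with the glucose transporter gene Slc2a3 (2.16) higher and Aldoc (-3.31, -3.59 without A/A siControl 1) and Car12 (-4.65, -5.50 without A/A siControl 1) lower. Of 20 NRF2 targets, 10 rose and 8 fell, and Nqo1 (2.22, 16.2 ± 1.11 CPM in A/A and 3.48 ± 0.6498 CPM in S/S cells) rose while Hmox1 (-0.66) fell. Gstm1, for a glutathione transferase of a family of close copies, was the most abundant gene to rise at least 4-fold, with 1962, 2026, 2103 and 1955 CPM in A/A cells against 238, 219.8, 204 and 232 CPM in S/S cells (3.17, SE 0.0733). Of 25 glutathione transferase and peroxidase genes, 13 rose and 10 fell, among them Gstt2 (4.27) and Gpx8 (-4.25, -4.68 without A/A siControl 1). Lysosome genes (10 rises and 7 falls of 22) and autophagy genes (9 and 6 of 22) had medians of 0.04 and 0.02, with Scarb2 (0.73) and Atg12 (0.94) highest.

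Hox, imprinted and clock genes were examined as separate lists. Of 38 Hox genes in the table, 12 were tested, 10 fell and 2 rose, and a Hox gene could pass the filter on counts through the one group where it was high. Hoxc6 measured 0.851, 0.0988, 0.0613 and 0.0857 CPM in A/A cells, against 9.81, 13.04, 13.3 and 9.52 CPM in S/S cells (-5.32, and -7.08 without A/A siControl 1). Hoxb13, the most posterior gene of its cluster, had 0 counts in all 4 A/A libraries and 0.284, 0.407, 0.285 and 0.235 CPM in S/S cells, at least 20.3-fold lower with 3 counts over the group as the limit. Hoxa9 was the reverse, with 0.322, 0.316, 0.511 and 0.578 CPM in A/A cells and 0 counts in S/S cells, at least 27.9-fold higher, and its neighbour Hoxa10 rose (4.19, 2.196 ± 0.167 CPM in A/A and 0.121 ± 0.0548 CPM in S/S cells). Of 18 imprinted genes, 9 rose and 5 fell, among them Igf2r (1.05, 381 ± 18.3 CPM in A/A and 183 ± 12.1 CPM in S/S cells) and Plagl1 (-5.09, -5.59 without A/A siControl 1). Of 19 clock genes, 12 rose and 4 fell. Npas2, a partner of BMAL1, had 0 counts in S/S cells and 2.76, 2.67, 2.901 and 2.31 CPM in A/A cells, at least 174-fold higher, and Rora, a receptor that drives Bmal1, rose (4.58, 31.7 ± 2.33 CPM in A/A and 1.34 ± 0.252 CPM in S/S cells).

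Outside the lists, the rule for the largest changes gave transport and membrane genes among the rises. Slco4c1, an organic anion transporter, measured 4.09, 5.71, 4.76 and 5.06 CPM in A/A cells and had 0 counts in S/S cells, at least 319-fold higher. The carboxylesterase genes Ces1d and Ces1c, related neighbours that may share reads, and Allc, for allantoicase, also had 0 counts in S/S cells. In that order they were at least 129-, 99.01- and 107-fold higher. Cd55 came next, then Tm4sf20 (7.56), Shisa6 (7.40), Scnn1g (7.35, a subunit of the epithelial sodium channel) and Rtl6 (7.29). Among the largest falls were Tnik, a kinase of Wnt signalling (-6.40), Ildr2 (-6.02), the small heat shock gene Hspb8 (-5.99), the protease inhibitor gene Serpine2 (-5.94), Esrp1, the developmental factor gene Pax3 (-5.81), Slc9a2 (-5.80), Sntb1 (-5.75) and Prune2 (-5.73). Tnik measured 0.265, 0.0198, 0 and 0 CPM in A/A cells, against 6.17, 6.57, 7.03 and 6.51 CPM in S/S cells. Without A/A siControl 1, Tnik had 1 count in A/A cells. The log2 fold change of Serpine2 was then -8.66, and those of Ildr2, Hspb8, Pax3, Slc9a2, Sntb1 and Prune2 lay from -8.07 (Ildr2) to -7.08 (Hspb8).

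Among abundant genes, those that rose at least 4-fold with the highest A/A level were Gstm1, Ly6e (1035 ± 30.4 CPM in A/A and 123 ± 5.89 CPM in S/S cells), the exporter gene Abcc5 (2.18), Dsp, Lrp2, Fabp5 (2.23), Sftpb, Onecut2 (2.11), Tln2 (2.94) and Cdhr2. Lrp2, for the endocytic receptor megalin, measured 437, 525, 486 and 493 CPM in A/A cells, against 18.2, 22.4, 21.3 and 19.6 CPM in S/S cells (4.57). Cdhr2, a protocadherin of the intestinal brush border, measured 223, 240.5, 245 and 223 CPM in A/A cells, against 8.93, 8.98, 7.98 and 8.75 CPM in S/S cells (4.75). Those that fell with the highest S/S level were Serpinh1, Apob, Sema3c (-2.21), Basp1 (-4.93), Tm4sf1 (-3.43, -3.69 without A/A siControl 1), the glutamine transporter gene Slc38a1 (-5.06), Flnc, the long non-coding RNA Lncenc1 (-5.71), Podxl (-2.66) and Anxa6 (-2.03). Flnc, for the actin crosslinker filamin C, measured 12.9, 3.14, 0.695 and 1.03 CPM in A/A cells, against 199, 221, 208 and 227 CPM in S/S cells (-5.55, and -7.02 without A/A siControl 1). For Basp1, Slc38a1 and Lncenc1 the values without that library were -5.86, -6.18 and -8.32.

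The changes were not spread evenly over the autosomes. On chromosome 18, 60% of 505 genes were higher and 18% lower in A/A cells, and the median log2 fold change was 0.41, against 0.01 over all autosomes. Chromosome 16 had a median of 0.34 (59.3% higher, 18.4% lower) and chromosome 3 of 0.28 (56.6% higher, 18.6% lower). At the other end, chromosome 15 had a median of -0.22 (23.5% higher, 50.5% lower) and chromosome 1 of -0.18 (23.2% higher, 48.2% lower). Per library, the median of chromosome 18 genes relative to the S/S mean ran from 0.397 to 0.442 in A/A and from -0.00436 to 0.0213 in S/S libraries. For chromosome 15 it ran from -0.216 to -0.188 in A/A and from -0.00722 to 0.0327 in S/S libraries. The groups did not overlap in either, and without A/A siControl 1 the medians of chromosomes 18, 16, 3 and 15 were 0.42, 0.34, 0.30 and -0.21.

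Within a chromosome the shift could change in a step. In runs of 50 neighbouring genes, the first 10 runs of chromosome 5 had medians from -0.42 to -0.20, the next 12 from 0.00 to 0.37, and the last one -0.02. The step lay between the runs that end with Sowahb and begin with Septin11, at about the same place without A/A siControl 1. On chromosome 14 the first 3 runs had medians from -0.36 to -0.27, the next 6 from 0.05 to 0.51, and the last 2 were below 0 again (-0.11 and -0.06). Over all 342 runs the medians had 5% and 95% points of -0.31 and 0.41. Of the genes described above, Atf4 lies on chromosome 15, Nkx2-1 on chromosome 12 (median 0.15), Ttr on chromosome 18 and Gstm1 on chromosome 3.

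**Figure D5:**
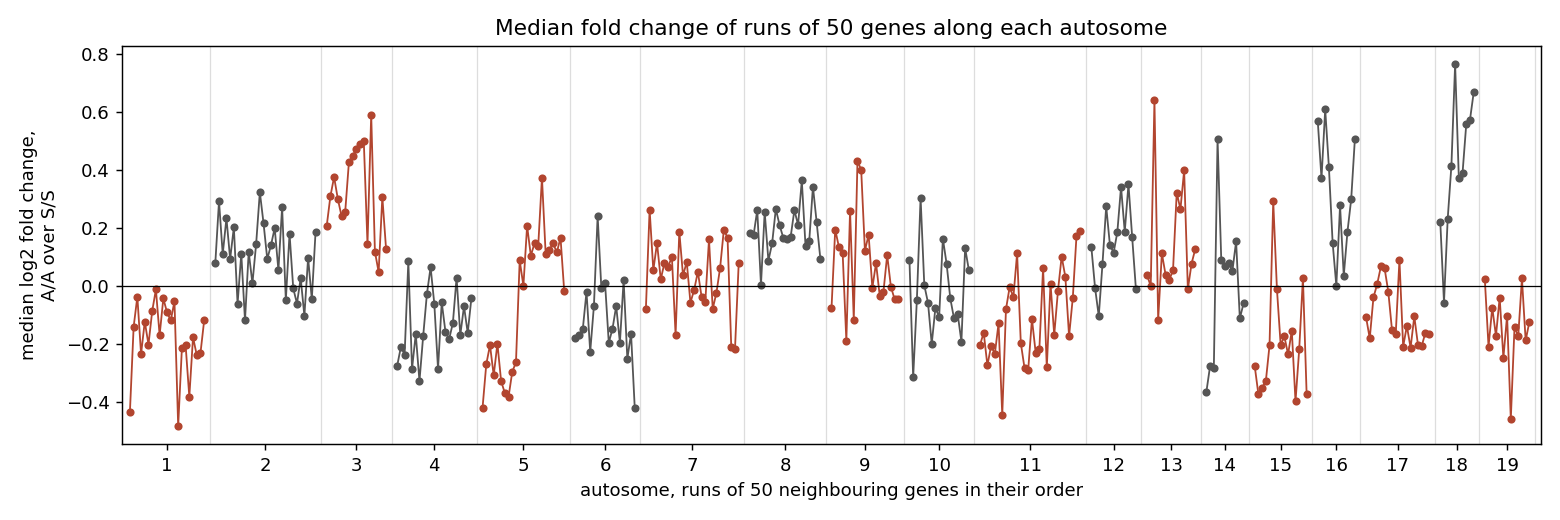
Median log2 fold change of A/A over S/S for each of 342 runs of 50 neighbouring autosomal genes, in gene order, with chromosomes in alternating colours. Chromosomes 3, 16 and 18 lie mostly above 0, chromosome 15 mostly below, and chromosome 5 steps from negative to positive medians.

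The other control group of S/S cells in the series, which carried a control shRNA and stands in a separately normalised table, shows that S/S libraries also differed among themselves. Atf4 measured 498 to 835 CPM in the 4 S/S shControl libraries and Chchd10 17.4 to 46.9 CPM, against the A/A siControl ranges of 151 to 185 and 7.97 to 10.2 CPM and the S/S siControl ranges of 473 to 555 and 38.1 to 46.0 CPM. Asns measured 191 to 579 CPM and Ddit3 11.8 to 52.3 CPM in S/S shControl, ranges that reach below the lowest A/A siControl library and above the highest S/S siControl library. Hnf4a measured 2.57 to 5.27 CPM and Cdh1 486 to 524 CPM in S/S shControl, both below the A/A and the S/S siControl libraries. Cdkn2a measured 0.0584 to 0.756 CPM there, against 186, 188, 185 and 182 CPM in A/A siControl and 216, 199, 194 and 228 CPM in S/S siControl. Cdkn2a was thus far lower in S/S shControl than in either siControl group. In S/S shControl, Apob averaged 1.538 CPM, Wnt10a 1.066, Hoxc6 0.4795, Foxj1 0.6611 and Lncenc1 1.057 CPM. Their A/A siControl means were 29.25, 0.8731, 0.2742, 0.3807 and 3.175 CPM. Their S/S siControl means were 488.4, 44.1, 11.42, 13.57 and 173.3 CPM. Wnt5a averaged 29.75 CPM in S/S shControl, above the means of both siControl groups. S/S cells thus did not all hold these genes at the S/S siControl level. Cdx2 averaged 26.57 CPM in S/S shControl and 28.81 CPM in S/S siControl, and Serpinh1 1174 and 1028 CPM. They were among the genes that stayed near the S/S siControl level. All these levels were set across tables and were not tested.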

How the data were processed

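RNA-seq of 24 libraries was deposited by the authors as whole-number counts per gene, not normalised, and the 16 libraries of the siRNA table were used. Per the labels, RNA was extracted with Trizol, TruSeq Stranded Total RNA libraries were sequenced on a NovaSeq, and the molecule is polyA RNA. The submitters' processing notes name mm10 and DESeq2 1.24.0. No source used here gives the aligner, the annotation or the strand setting, so overlapping, antisense and near-identical genes are uncertain. Symbols were placed with RefSeq on GRCm38.p6, and all 39310 matched.

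Counts were tested with edgeR 4.0.16 in R 4.3.3. filterByExpr kept 18138 genes, TMM scaled the libraries, and 1 quasi-likelihood model with a term per group was fitted to the 16 libraries, so that the groups share 1 estimate of the spread. The contrast was A/A siControl minus S/S siControl, with Benjamini-Hochberg adjustment over all 18138 genes and a threshold of 0.05. Autosomal genes are reported. No pair of replicates agreed within sampling noise. Alternatives were other scalings, no filter, DESeq2 1.42.0, the 8 libraries alone, a replicate block, leaving out each library, and a minimum fold of 2.

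Genes were named by rule. Over all autosomal genes it took the 10 largest rises and falls, and the 10 most abundant at least 4-fold rises and falls. These had to be past the threshold, with average log2 CPM of at least 1, groups not overlapping and the call held without A/A siControl 1. From each list it took up to 3 rises and 3 falls past the threshold, some of which are left out here. List members did not have to meet the other conditions, so some, such as Fgf21, are low, and in some, such as Adm2, the groups overlap. A further 13 genes were always named, and Krt8, Krt18, Epcam, Hoxc6, Septin11 and Sowahb were named after their values were seen. The comparison, the lists and the rule were chosen with earlier results of these data known. The 14 genes of S/S cells were picked by level, at least 20 CPM in each of the 8 S/S libraries and under 0.5 CPM in each A/A siChchd10 library.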

Additional observations from a re-analysis of the deposited data

Results flagged for a closer look

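In 43 of 412 groups of 4 libraries (206 named genes, each in A/A and in S/S cells), 1 library lay far from the other 3 by Dixon's criterion, which chance alone meets in about 1 group in 20. A/A siControl 1 was the high library in 25 of them. It held Apob at 50.3 CPM, Basp1 at 26.3 CPM, Bcat1 at 13.4 CPM, C3 at 13.9 CPM, Car12 at 2.08 CPM, Cdx2 at 2.86 CPM, Cox5b at 65.9 CPM, Esrp1 at 0.208 CPM, Foxj1 at 1.34 CPM, Hoxc6 at 0.851 CPM, Il33 at 17.8 CPM, Ildr2 at 0.473 CPM, Itgb6 at 1.25 CPM, Lncenc1 at 11.1 CPM, Mcm6 at 203 CPM, Ndufb6 at 23.1 CPM, Ndufb8 at 71.5 CPM, Rpl14 at 508 CPM, Serpine2 at 2.63 CPM, Serpinh1 at 90.9 CPM, Slc38a1 at 19.1 CPM, Tm4sf1 at 38.9 CPM, Tnik at 0.265 CPM, Wnt10a at 2.87 CPM and Wnt7b at 4.104 CPM. Each of these genes was lower in A/A than in S/S cells, and this is the library that stood at 6.72% of the S/S level in the 14 genes of S/S cells. A/A siControl 1 was the low library for Sftpc at 0.0567 CPM and Spry1 at 74.5 CPM, genes that were higher in A/A cells. What set this library apart was not tested.

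The other 16 were spread over 6 libraries. The high ones were Atp5a1 at 1062 CPM in A/A siControl 3, Ager at 5.66 CPM in A/A siControl 4, Gdf15 at 63.8 CPM in S/S siControl 2, Cenpf at 367 CPM in S/S siControl 3, and Eif2b3 at 20.2 CPM, Gbp3 at 3.29 CPM and Hspb8 at 7.04 CPM in S/S siControl 4. The low ones were Fabp1 at 98.5 CPM in A/A siControl 4, Col5a1 at 25.8 CPM in S/S siControl 1, Dnajc3 at 44.3 CPM, Fen1 at 57.7 CPM, Kif23 at 179 CPM and Sntb1 at 6.57 CPM in S/S siControl 2, and Cd59a at 0.019004 CPM, Plk2 at 82.1 CPM and Rpl3 at 774 CPM in S/S siControl 3.

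Among the 13 genes that were always named, 9 had an A/A over S/S difference that was not the same after Chchd10 knockdown as after siControl, by the interaction term of the same model (log2 difference of the fold changes, siChchd10 minus siControl, with adjusted p from edgeR's quasi-likelihood test). It was 4.63 for Sftpc (adjusted p = 0.00433), 0.49 for Chchd10 (0.0205), 0.45 for Asns (2.55e-06), 0.29 for Eif2s1 (6.50e-04) and 0.28 for Nkx2-1 (0.00162). It was -0.56 for Trp53 (0.00147), -0.33 for Vim (2.31e-04), -0.20 for Cdkn2a (0.0206) and -0.18 for Hnf4a (0.0266). The same term passed for 6258 of all 17517 genes (35.7%). Chchd10 is itself the target of that siRNA. Eif2s1 stood at -0.14 with siControl and 0.15 with siChchd10, so its direction depended on the siRNA.

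The sex chromosomes were outside the comparison. The 4 Y-linked genes Ddx3y, Uty, Eif2s3y and Kdm5d summed to 356.8 CPM on average in A/A and to 130.6 CPM in S/S siControl libraries. Each was higher in A/A cells, by log2 fold changes of 1.37, 1.67, 1.46 and 1.40.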

How the results depend on the processing

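The count of genes past the threshold, in all, in each direction and at 2-fold, stayed within 1.5 times its value under every alternative tried, which were other scaling, no filter, DESeq2, the 8 libraries alone, the replicate block, adjustment over autosomal genes and leaving out each library. The exception was a test against a minimum fold of 2, which 2645 genes passed. Leaving out single libraries gave from 11910 to 12169 genes. The median of all autosomal genes moved by under 0.1 under each scaling. Without scaling beyond totals the medians of chromosomes 3, 15, 16 and 18 were 0.31, -0.20, 0.36 and 0.43, and with RLE scaling that of chromosome 16 was 0.33, moves larger than the spread between libraries. Of the 206 named genes, 4 gained or lost a call under at least 1 alternative (Adm2, Manf, Slc6a9 and Trp53) and none changed direction. List medians near 0 changed sign for tumour drivers and p53 targets, and the 7 airway genes had -0.37 in the 8 libraries alone.

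The replicate numbers did not pair the libraries, since the correlations of deviations were 0.117, 0.0346, -0.00277 and -0.189 for numbers 1 to 4. With the replicate block 12109 genes passed. Fold changes of strong falls depend on A/A siControl 1, and very low A/A levels rest on few counts.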

Other observations

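The same genotypes were also sequenced after Chchd10 knockdown. Of the genes that passed in both comparisons, 545 differed in opposite directions. The median log2 fold change of chromosome 18 was 0.37 after siChchd10, against 0.41 after siControl, and that of chromosome 15 was -0.28 against -0.22. The median of Hox genes was -5.88 after siChchd10 and -5.17 after siControl, and that of complement genes 1.97 after siChchd10 and 2.09 after siControl. The median of mitochondrial ribosomal protein genes was 0.04 after siChchd10 and -0.24 after siControl, that of respiratory chain genes 0.12 and -0.13, and that of mitochondrial chaperones and proteases -0.00 and -0.48. In the same order, ATF4-linked amino acid genes had -0.16 and -0.31, and ATF4-linked stress genes -0.50 and -0.74. Cytosolic tRNA synthetase genes had -0.03 and -0.28, interferon-stimulated genes -0.23 and -0.67, and cytosolic ribosomal protein genes -0.29 and -0.31. Liver plasma protein genes had medians of 0.55 and -0.85, and alveolar type 2 genes of 1.40 and 0.66. Apob was at -2.64 after siChchd10 and -4.06 after siControl, Alb at 3.16 and 1.83, and Nqo1 at 0.18 and 2.22. The differences between these list medians were not tested.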
